A study of Arabidopsis thaliana with 14 samples.

Results

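The genes described here are those that 2 regions of the young Arabidopsis thaliana endosperm, the micropylar and the peripheral, had at high signal in common. They are 88 of the 22746 non-control probe sets of the array. A probe set is a group of short probes that reads the transcript of 1 gene or, for some, of several. They were chosen by their measured group means. A probe set was taken where the lower of the micropylar and the peripheral mean was at least 500 and at least 3 times the highest mean among the embryo proper, the chalazal endosperm, the general seed coat and the chalazal seed coat. The rule found 91 probe sets, and 3 were left out: the plastid gene psbT and the photosystem genes PSAE-1 and PSBW. With the same thresholds 273 probe sets were high in the micropylar endosperm alone, 221 in the peripheral alone, 518 in the chalazal alone and 75 in all 3 endosperm regions.

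Seeds came from Ws-0 plants aged 38 to 46 days and grown at 20 °C, out of siliques 1.0 to 1.1 cm long. Their embryo proper had 2 to 8 cells. Laser microdissection of sections of fixed, paraffin-embedded siliques gave the embryo proper, the micropylar, peripheral and chalazal endosperm, and the general and chalazal seed coat, beside sections of the whole seed, and 2 to 5 ng of RNA was amplified for each array. Each of the 7 groups had 2 biological replicates, 14 arrays in all, and all groups shared the genotype, the stage and the growth conditions. The source label of the peripheral samples reads cellularized endosperm. The labels do not say whether plants were pooled or whether compartments came from the same seeds, so the p-values measure only the spread between these samples.

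The endosperm is the second product of double fertilisation and feeds the embryo. In Arabidopsis it first grows as a syncytium of free nuclei and forms cell walls later, in a wave that starts around the embryo. The micropylar region surrounds the embryo, the peripheral region lines the large central vacuole, and the chalazal region lies at the opposite pole beside the maternal vascular supply. The seed coat is maternal tissue around them all.

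All values are signal on the linear scale of the array, which reached these files already scaled: with 2% of values trimmed from each end, the array means were 500.04 to 500.07. Differences are on the log2(signal + 35.9) scale. The number of arrays limits their precision, and in such samples fewer cells of a type and less RNA per cell cannot be told apart. Only some marker genes of the compartments could be read. Of 22 embryo genes listed 2 were named on the array. The embryo regulator BBM read 581 and 680 in the embryo proper and 125 and 6.72 in the micropylar endosperm, and the leaf and embryo polarity gene PHV read 218 and 3.66 in the embryo proper and 214 and 290 in the chalazal seed coat, which does not follow the label. The summed signal of 4 seed coat genes (BAN, DFR, INO and ARA12, of 20 listed) was 39334 in the general seed coat. The micropylar endosperm had 2243 of it, the peripheral 2778, the chalazal 4827 and the embryo proper 1009. The endosperm regulator AGL62 read 790 and 891 in micropylar, 3678 and 5237 in peripheral endosperm, and 97.6 and 107 in the embryo proper. The sum of 6 chalazal endosperm genes (of 11 listed) was 182062 in the chalazal, 12907 in the peripheral and 3748 in the micropylar endosperm and 983 in the embryo proper. This sum includes AGL62 itself, with a peripheral mean of 4457. For AT5G26630, AT4G36590 and AT3G05860 the peripheral means were 3892, 2759 and 1647. Brightest in the chalazal endosperm were AT3G03410 (mean 105314) and SBT4.13 (mean 36579). Their peripheral means were only 146 and 5.46, and their micropylar means 763.5 and 154. The lowest signal of any non-control probe set was between 0.293 and 1.45 on each array, so no marker could read 0 in any compartment. What part neighbouring tissue had in any sample was not tested.

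Across the 88 probe sets the group means had a median of 2252 (micropylar) and 2947 (peripheral endosperm). The chalazal endosperm had 362 and the embryo proper 314.5. The general seed coat had 144, the chalazal seed coat 132 and the whole seed 613. These levels follow from the rule and are a description. The ratio of the lower high mean to the highest low mean had a median of 3.98 and ran from 3.04 to 17.16, with 23 probe sets at 5 or more. The highest of the low compartments was the chalazal endosperm for 40 probe sets, the embryo proper for 34, the general seed coat for 11 and the chalazal seed coat for 3. In 86 of the 88 all 4 micropylar and peripheral arrays lay above all 8 arrays of the low compartments. The exceptions were AT1G60000 and the unnamed 255078_at, where micropylar replicate 2 read 356 and 432.

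**Figure D1:**
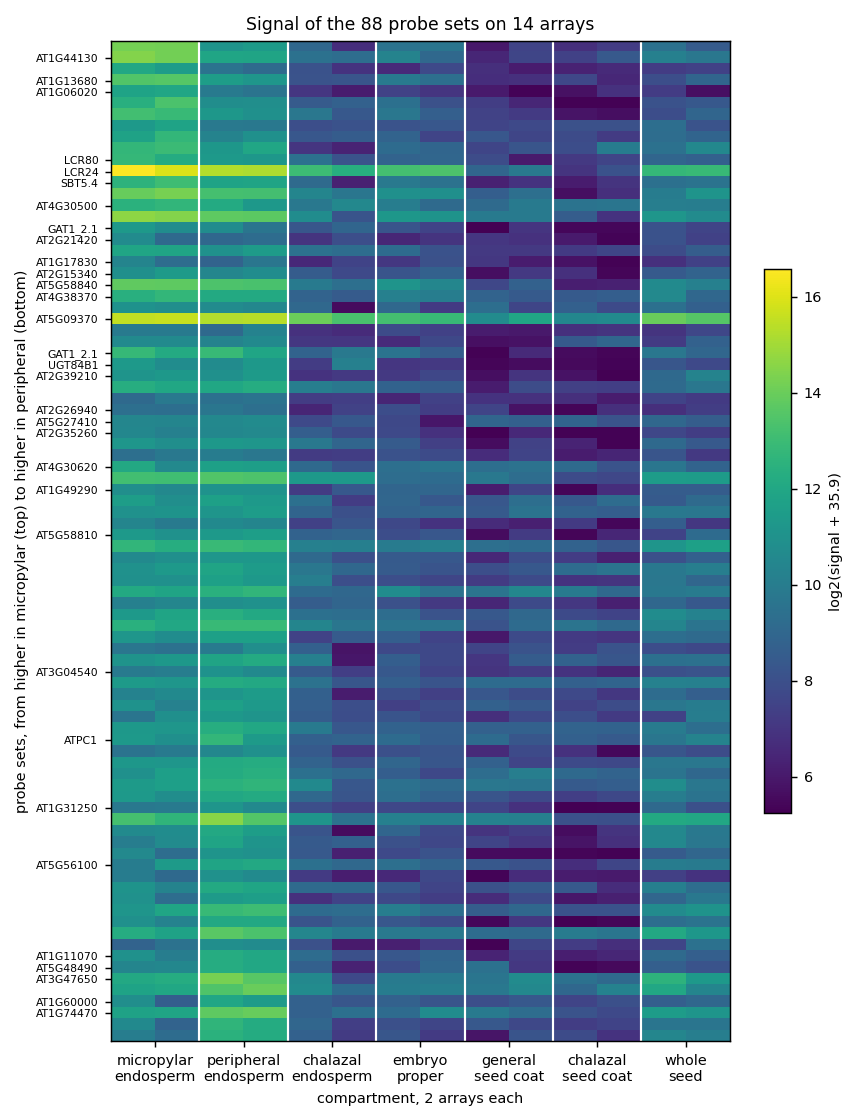
Signal of each of the 88 probe sets (rows) on each of the 14 arrays (columns), as colour on the log2(signal + 35.9) scale, ordered from the largest micropylar excess at the top to the largest peripheral excess at the bottom. Probe sets with 1 gene are named. The 4 micropylar and peripheral columns are bright in nearly every row, as the rule required, and the chalazal seed coat is the lowest of the 6 compartments in 58 rows.

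Of the 88 probe sets, 32 had 1 gene in the platform annotation, 2 had several and 54 had none, so most of them are known here by probe set only. The 32 stood for 31 genes, 25 of them known only by a locus number. A probe set without a gene could not be checked for a plastid or mitochondrial origin. All 88 passed the filter on low signal. The rule had all but fixed this, since bright signal in both arrays of 1 group was enough to pass.

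The 6 genes with a symbol have varied roles. LCR24 and LCR80 belong to the low-molecular-weight cysteine-rich family, small secreted peptides that resemble plant defensins. LCR24 read 97496 and 65082 in the micropylar and 39935 and 36563 in the peripheral endosperm, 8171 and 5154 in the chalazal endosperm and 9370 and 10742 in the embryo proper. The general seed coat read 462 and 868, the chalazal seed coat 87.8 and 241, and the whole seed 7108 and 7415. The 2 micropylar arrays were thus the highest of all and the 4 seed coat arrays the lowest, with no overlap between them and any other group. LCR80 read 7054 and 4774 in micropylar, 2571 and 2362 in peripheral and 664 and 243 in chalazal endosperm, and 424 and 468 in the embryo proper. Its seed coat arrays lay between 30.3 and 200.4 and its whole-seed arrays at 455 and 384, level with the embryo proper.

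SBT5.4 is a subtilase, one of a large family of secreted serine proteases. It read 6004 and 8582 in the micropylar and 3588 and 3685 in the peripheral endosperm, 863 and 697 in the embryo proper, and 655 and 727 in the whole seed. The chalazal endosperm arrays disagreed, at 535.5 and 42.9, and the 4 seed coat arrays were between 33.0 and 87.7. GAT1_2.1, named for the glutamine amidotransferases, had 2 probe sets and both were members. The first (260741_at) read 7268 and 4630 in the micropylar and 7602 and 3830 in the peripheral endosperm, 429 and 881 in the chalazal endosperm, 713.5 and 342 in the embryo proper and at most 61.1 in the seed coat. The other (260743_at) read 2514 and 1673, 1693 and 765, 271 and 455, and 251 and 146 in the same 4 compartments, and at most 91.2 in the seed coat. Both probe sets gave the same order of group means from the micropylar down to the chalazal seed coat.

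UGT84B1 is a glucosyltransferase that joins glucose to the auxin indole-3-acetic acid. It read 2630 and 1699 in the micropylar and 1647 and 2482 in the peripheral endosperm, and 95.4 and 104 in the embryo proper. The chalazal endosperm read 118.5 and 1121, so that replicate 2 alone set the mean which decided its ratio of 3.33. The 4 seed coat arrays were between 5.11 and 13.7. ATPC1, the gamma subunit of the chloroplast ATP synthase, read 2500 and 1878 in the micropylar and 6728 and 2680 in the peripheral endosperm. Its other 8 compartment arrays, between 270.2 and 560, overlapped between the seed coat, the embryo proper and the chalazal endosperm. It was the only member matched to the gene lists used here, which were read by symbol, while most members had no symbol. PSAE-1 and PSBW, on the same list as ATPC1, met the thresholds with ratios of 4.81 and 5.67 but were left out by name.

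**Figure D2:**
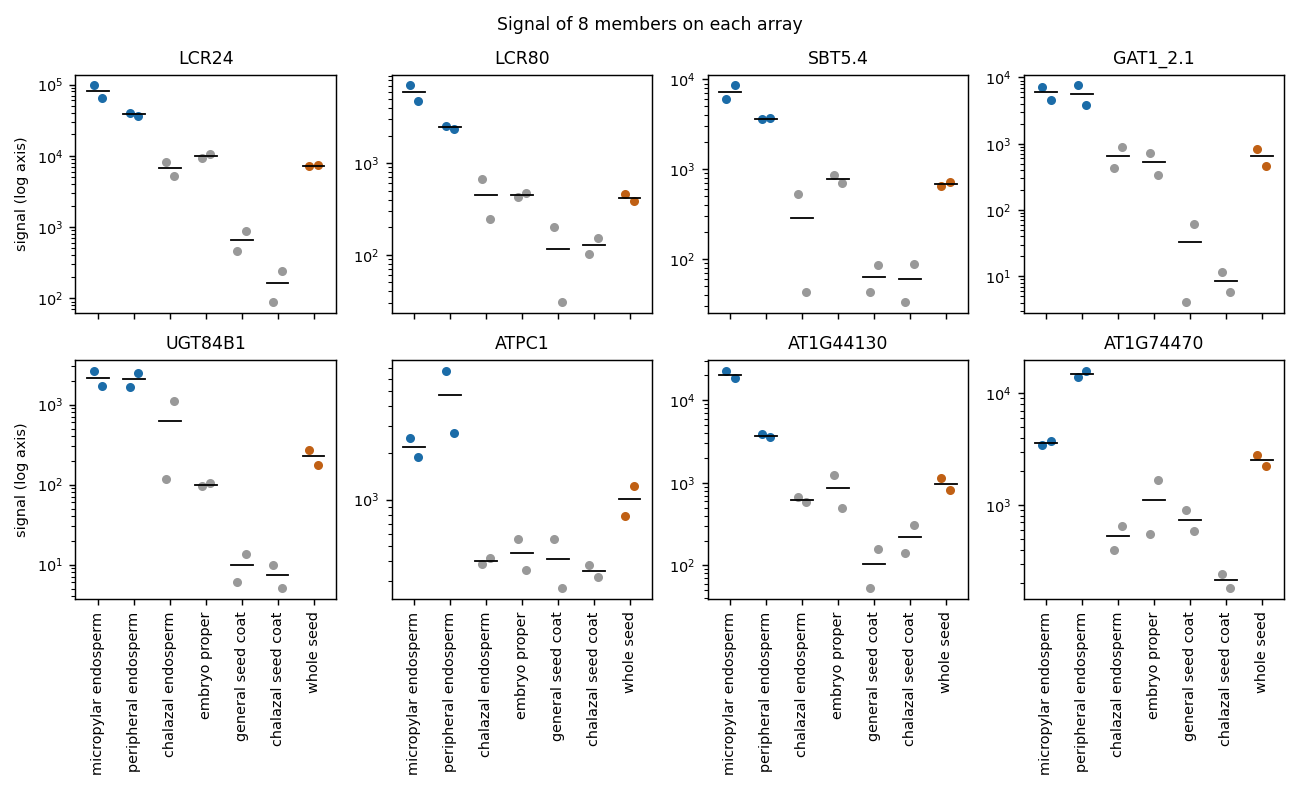
Signal of 8 members on each of the 14 arrays (points, log axis, each panel with its own range) with the mean of the 2 arrays as a line, GAT1_2.1 by its first probe set (260741_at). Micropylar and peripheral endosperm are blue, the low compartments grey and the whole seed orange. LCR24 shows the seed coat far below the embryo proper and the chalazal endosperm, while the low compartments of ATPC1 are level with each other.

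Among the genes known by locus number, AT2G39210 had the largest ratio, 17.16. It read 2179 and 2463 in the micropylar and 1897 and 2662 in the peripheral endosperm, and the arrays of the 4 low compartments were between 1.92 and 163. Its whole-seed arrays read 513 and 1226, above all of the low compartments. AT5G09370 lay at the other end with a ratio of 3.06. It read 46983 and 51095 in the micropylar and 39698 and 42181 in the peripheral endosperm, 16729 and 10041 in the chalazal endosperm and 9426 and 7431 in the embryo proper, while the seed coat arrays were between 1419 and 3892. The steps ran in one order on every array: micropylar, peripheral, chalazal endosperm, embryo proper, seed coat.

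AT5G58840 read 14476 and 13968 in the micropylar and 10722 and 10169 in the peripheral endosperm, 2203 and 1352 in the embryo proper and 888 and 640 in the chalazal endosperm. The seed coat arrays lay between 37.6 and 400.4. AT5G58810, which the TAIR10.1 gene table lists as a transcribed pseudogene, stands 2 genes away from it on chromosome 5 and was a member too. It read 2506 and 1967 in the micropylar and 2620 and 3059 in the peripheral endosperm, 409 and 471 in the chalazal endosperm, 209.8 and 279.9 in the embryo proper, and between 6.62 and 110.2 in the seed coat. Unlike AT5G58840 it was higher in the chalazal endosperm than in the embryo proper on every array. Whether the 2 probe sets read each other's transcript was not tested.

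The rule asked that both regions be high and did not use the difference between them. Its floor on both means limits how far they can differ and picks bright probe sets. The shares of members below are therefore not like for like with those of all tested, and are a description. Of the 88 probe sets, 9 were called higher in the micropylar endosperm (10.2%, against 6.05% of the 17336 probe sets tested) and 7 higher in the peripheral (7.95%, against 6.13%), where a call needs both 2-fold and an adjusted p below 0.05 in limma's two-sided moderated test. The median difference, micropylar minus peripheral, was -0.35 among members and 0.04 among all tested, and members ranged from -2.70 to 2.94. Both peripheral arrays lay above both micropylar arrays in 51 members (58%, against 25.7% of all tested) and below them in 23 (26.1%, against 27.8%), and the arrays overlapped in 14. Scaling each array to its median moved the median of all tested probe sets to -0.21 and that of the members to -0.67. The calls were then 5 higher (5.68%, against 4.51% of all tested) and 13 lower (14.8%, against 9.41%). With no added value 3 were higher (3.41%, against 4.05%) and 4 lower (4.55%, against 4.19%). Limma's treat, which tests against a 2-fold difference, called 0 members in either direction. Of all tested it called 1.37% higher and 0.958% lower. The calls also rested on single arrays. Their counts fell without micropylar replicate 2 and without either peripheral replicate, and the shares among all tested probe sets fell there too.

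A total of 3 named genes and 6 unnamed probe sets were higher in the micropylar endosperm. AT1G44130 read 22547 and 18381 there and 3846 and 3627 in the peripheral endosperm, with 671 and 585 in the chalazal endosperm and 1230 and 497 in the embryo proper. The difference was 2.44 (SE 0.49, adjusted p = 0.00219), and the call held without any 1 array. AT1G13680 read 11384 and 12200 against 2954 and 2344, a difference of 2.15 (SE 0.49, adjusted p = 0.0064), and lost the call without peripheral replicate 2. AT1G06020 read 3607 and 3908 against 927 and 752, a difference of 2.12 (SE 0.64, adjusted p = 0.0344). Its call was lost without any 1 of those 4 arrays. In all 3 genes the micropylar and peripheral arrays were far apart and did not overlap. The unnamed probe sets differed by 1.64 to 2.94, the latter being 255922_at with 19051 and 18247 against 2143 and 2674.

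A total of 2 named genes and 5 unnamed probe sets were higher in the peripheral endosperm. AT1G74470, which the gene table gives as geranylgeranyl reductase, makes the phytyl chain of chlorophyll and of tocopherols. It read 13924 and 15804 in peripheral and 3433 and 3724 in micropylar endosperm, with 399 and 653 in the chalazal endosperm and 549 and 1672 in the embryo proper. The difference was -2.04 (SE 0.45, adjusted p = 0.00468), and the call was lost without peripheral replicate 2. AT1G60000 read 3909 and 2757 in peripheral and 1803 and 356 in micropylar endosperm, a difference of -1.97 (SE 0.59, adjusted p = 0.0322). It moved to -0.85 without micropylar replicate 2, where the call was lost, as it was without either peripheral replicate. The unnamed probe sets differed by -2.70 to -1.43.

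None of the genes with a symbol was called between the micropylar and the peripheral endosperm. LCR24 was higher in the micropylar by 1.06 (SE 0.36, adjusted p = 0.0566), LCR80 by 1.22 (SE 0.57, adjusted p = 0.17) and SBT5.4 by 0.97 (SE 0.65, adjusted p = 0.363), each with arrays that did not overlap. The difference of LCR24 was 0.18 after quantile normalization and 0.74 after median scaling, and 6 of 22 alternatives, each with 1 chalazal endosperm or seed coat array left out, called it. The first probe set of GAT1_2.1 differed by 0.10 (SE 0.57) and UGT84B1 by 0.06 (SE 0.70), with overlapping arrays. The other GAT1_2.1 probe set differed by 0.83 (SE 0.63, adjusted p = 0.443) with overlapping arrays and stayed above 0 under every alternative. The first GAT1_2.1 probe set and UGT84B1 turned to the other side of 0 after scaling by the median, at -0.21 and -0.25. ATPC1 differed by -0.96 (SE 0.49, adjusted p = 0.218) and by -0.30 without peripheral replicate 1.

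Genes of photosynthesis were read beside these because ATPC1 is one of them. The 4 lists (light harvesting, photosystems and electron transport, the Calvin cycle, chlorophyll synthesis) held 117 genes, of which 21 were named on the array and tested. PSBY, PSBW, PSAE-1, PSAN and RCA, which the rule leaves out by name, are among the 21. All 21 had their highest mean in the peripheral endosperm and 16 had the micropylar as the next. These orders were not counted over all probe sets. In micropylar against peripheral endosperm 8 were lower and 0 higher, with a median of -1.54. Among all 17336 probe sets tested 6.13% were lower and 6.05% higher. The lists were chosen with earlier results of these data known, so these counts are a description. PRK, the phosphoribulokinase of the Calvin cycle, read 24366 and 20550 in peripheral and 4184 and 2875 in micropylar endosperm, a difference of -2.68 (SE 0.38, adjusted p = 8.25e-05). It was no member because the chalazal endosperm read 11094 and 12630. PORB, an enzyme of chlorophyll synthesis, read 1949 and 2412 against 271 and 369, a difference of -2.64 (SE 0.62, adjusted p = 0.00753) that lost its call without either peripheral replicate. The ratio that the rule used was 3 or more in 4 of the 21, among them PSAE-1 and PSBW, which were left out by name.

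Type I MADS-box genes, transcription factors known for roles in the endosperm, gave no member among the 15 tested. Of these, 4 were higher in the micropylar and 6 were higher in the peripheral endosperm, beside 6.05% and 6.13% of all probe sets tested. This list too was chosen with earlier results of these data known, so the counts are a description. AGL57 read 5806 and 5565 in the micropylar and 41.8 and 21.0 in the peripheral endosperm, and AGL28 read 165 and 414 against 3588 and 3684. AGL28 also read 1210 and 1677 in the chalazal endosperm. AGL29, picked out after its values were seen, was the only one of them with a ratio of 3 or more. It read 329 and 194 in the micropylar and 187 and 421 in the peripheral endosperm, and at most 40.6 in the low compartments, a ratio of 11.19 that missed the level of 500.

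The 4 low compartments were held under a common ceiling by the rule, but their order was not fixed. The ceiling limits how far any of them can exceed another, so shares of calls in either direction are not those of freely varying probe sets. Members could also pass the filter on low signal through their micropylar and peripheral arrays alone, so their shares beside those of all tested are a description. Of the 88 probe sets, 36 were higher in the embryo proper than in the mean of the seed coat regions (40.9%, against 13.4% of all tested) and 2 were lower (2.27%, against 15.9%). The median difference was 1.08 among members and -0.06 among all tested. For the chalazal endosperm against the seed coat 33 were higher (37.5%, against 13.4%) and 1 lower (1.14%, against 23.1%), with medians of 0.93 and -0.23. The 2 comparisons share the 4 seed coat arrays. The means of the embryo proper and the chalazal endosperm were both above both seed coat means in 56 probe sets (63.6%, against 18.3% of all tested). The chalazal seed coat mean was under 50 in 27 probe sets and the general seed coat mean in 9, where the size of a difference depends on the value of 35.9 added before the logarithm. The first count dropped to 20 without embryo proper replicate 1 and to 23 without replicate 2, and the count for the chalazal endosperm dropped to 21 without its replicate 1. The 2 lower calls for the embryo proper became 0 without its replicate 2, and the 1 for the chalazal endosperm became 7 without its replicate 1 and 0 without replicate 2. Leaving out either embryo proper replicate also lowered the share called higher there among all tested. By treat the counts were 11 for the embryo proper (12.5%, against 4.22% of all tested) and 16 for the chalazal endosperm (18.2%, against 5.48%).

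LCR24 was higher in the embryo proper than in the seed coat by 4.84 (SE 0.31, adjusted p = 5.8e-10) and in the chalazal endosperm by 4.21 (SE 0.31, adjusted p = 2.97e-09). The first GAT1_2.1 probe set was higher by 3.34 in the embryo proper (SE 0.49, adjusted p = 2.69e-05) and by 3.63 in the chalazal endosperm (SE 0.49, adjusted p = 7.43e-06). These calls held under every alternative, treat included. AT5G58840 was higher by 3.56 in the embryo proper (SE 0.36) and by 2.40 in the chalazal endosperm (SE 0.36), and both calls also held under every alternative. SBT5.4 was higher by 3.10 in the embryo proper (SE 0.56, adjusted p = 0.000242) and differed by 1.16 in the chalazal endosperm (SE 0.56, adjusted p = 0.109). UGT84B1 was higher by 3.25 in the chalazal endosperm (SE 0.61, adjusted p = 0.000277), which was 1.80 without chalazal endosperm replicate 2 and 4.70 without replicate 1. In the embryo proper it differed by 1.61 (SE 0.61, adjusted p = 0.0509). Its difference between the embryo proper and the chalazal endosperm, -1.64 (SE 0.70, adjusted p = 0.0766), was not called. ATPC1 differed from the seed coat by 0.25 and 0.12 in the 2 compartments (SE 0.42 each), with all its low arrays overlapping.

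The exceptions were few. AT5G27410 read 170 and 25.5 in the embryo proper, against 461 and 384 in the general and 437 and 245 in the chalazal seed coat. It was lower in the embryo proper by -1.86 (SE 0.48, adjusted p = 0.00561), which was -0.99 and no longer called without embryo proper replicate 2. The other such probe set, the unnamed 258524_at, read 354 and 173 in the embryo proper and between 421 and 1049 in the seed coat. Its difference of -1.17 (SE 0.39, adjusted p = 0.0286) lost its call without embryo proper replicate 2, general seed coat replicate 2 or chalazal seed coat replicate 1. The unnamed 249710_at read 91.3 and 48.0 in the chalazal endosperm, 159 and 265 in the general and 204 and 997 in the chalazal seed coat. It was lower in the chalazal endosperm by -1.75 (SE 0.50, adjusted p = 0.00863), a call that was lost without chalazal endosperm replicate 2. In all 3 the endosperm or embryo arrays lay below all 4 seed coat arrays.

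**Figure D3:**
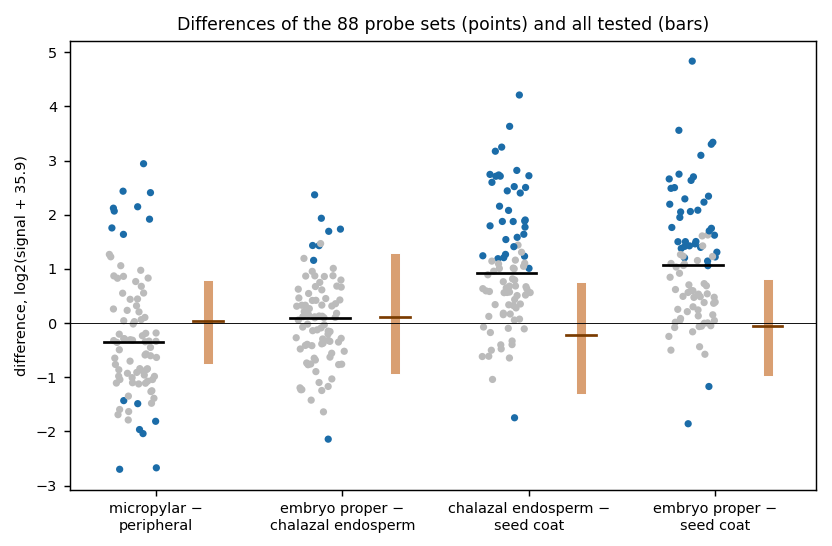
Differences of the 88 probe sets in 4 comparisons (points, log2(signal + 35.9) scale, blue where called), with their median as a black line. The rule used the group means compared here but not their differences. Its floor limits the comparison of micropylar and peripheral endosperm, and its ceiling limits those among the low compartments. The bar beside each cloud runs from the lower to the upper quartile of all 17336 probe sets tested, with their median as a line. Members lie mostly above 0 in both comparisons with the seed coat, with medians of 0.93 and 1.08, and around 0 between the embryo proper and the chalazal endosperm.

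Between the embryo proper and the chalazal endosperm fewer members were called than among all probe sets: 7 were higher in the embryo proper (7.95%, against 20.0% of all tested) and 1 was lower (1.14%, against 14.4%). A common ceiling on both limits this difference, and members could pass the filter on low signal without either compartment. The median was 0.10 among members and 0.11 among all tested. Of the 7, 4 named genes were higher in the embryo proper. SBT5.4 differed by 1.94 (SE 0.65, adjusted p = 0.0242), a value that ran from 0.51 without chalazal endosperm replicate 2, where the call was lost, to 3.36 without replicate 1. AT4G38370 read 1117 and 1009 in the embryo proper and 430 and 321 in the chalazal endosperm, a difference of 1.43 (SE 0.45, adjusted p = 0.0175). AT1G13680 read 886 and 633 against 248 and 262 (1.43, SE 0.49, adjusted p = 0.0284). AT5G58840 differed by 1.16 (SE 0.42, adjusted p = 0.0371).

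In each of these 4 genes both embryo proper arrays were above both chalazal endosperm arrays. Each call was lost without embryo proper replicate 1, and the count of 7 was 2 without that array, 3 without embryo proper replicate 2, 1 without chalazal endosperm replicate 2 and 13 without chalazal endosperm replicate 1. The count of 1 lower was 3 without embryo proper replicate 1, 5 without chalazal endosperm replicate 2 and 2 without chalazal endosperm replicate 1 or either general seed coat array. Quantile normalization gave 3 higher (3.41%, against 19% of all tested) and 3 lower (3.41%, against 15.2%). The probe set higher in the chalazal endosperm, 255997_s_at, read 2642 and 2616 there and 588 and 546 in the embryo proper. Its difference of -2.14 (SE 0.33, adjusted p = 3.75e-05) stayed called under every alternative.

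The 2 chalazal endosperm arrays were less alike for these probe sets than for all tested. Their SD was 0.97 on the log2 scale over members and 0.78 over all tested. Replicate 1 was above replicate 2 in 62 of the 88, an order that was not counted over all probe sets. The array medians were 419 and 262 over members and 131 and 126 over all non-control probe sets. In the micropylar endosperm the SD was 0.46 over members and 0.76 over all tested, and in the peripheral 0.30 and 0.55. The rule asked for bright signal in both regions, with member medians of 2252 and 2947 against 144 and 118 over all non-control probe sets. Whether brightness set these SDs was not tested. The embryo proper had 0.52 and 0.52, the general seed coat 0.72 and 0.57 and the chalazal seed coat 0.53 and 0.55. The embryo proper, which lies inside the micropylar endosperm, had a mean of 13.59% of the micropylar mean in the median member, from 3.1% to 31.03%. The chalazal endosperm had 12.24% of the peripheral mean, from 2.22% to 32.69%. The rule kept both shares under its ratio of 3, so they are a description.

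The whole seed played no part in the rule. Its mean was below both the micropylar and the peripheral mean in 87 of the 88 probe sets (33.0% of all tested) and above all 4 low compartments in 48 (54.5%, against 13.4%). Both whole-seed arrays were above both general seed coat arrays in 74 (84.1%, against 23.3%). The rule had set the compartments high or low on their side of each of these counts, so they are a description. As a share of the mean of the micropylar and peripheral means, the whole-seed mean had a median of 20.12% and ran from 2.89% for AT1G06020 to 52.89% for the unnamed 256979_at. Members called higher in the micropylar endosperm had a median share of 6.09% (2.89% to 22.01%), those called higher in the peripheral 31.07% (19.6% to 41.89%) and the other 72 had 20.38%. AT1G44130 read 1134 and 812 in the whole seed, a share of 8.04%, and AT1G74470 read 2830 and 2224, a share of 27.4%. Across the 88 probe sets the share and the micropylar minus peripheral difference correlated at r = -0.69 (Spearman's rho = -0.61). This is a description, since both measures use the same micropylar and peripheral arrays and probe sets are not replicates.

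**Figure D4:**
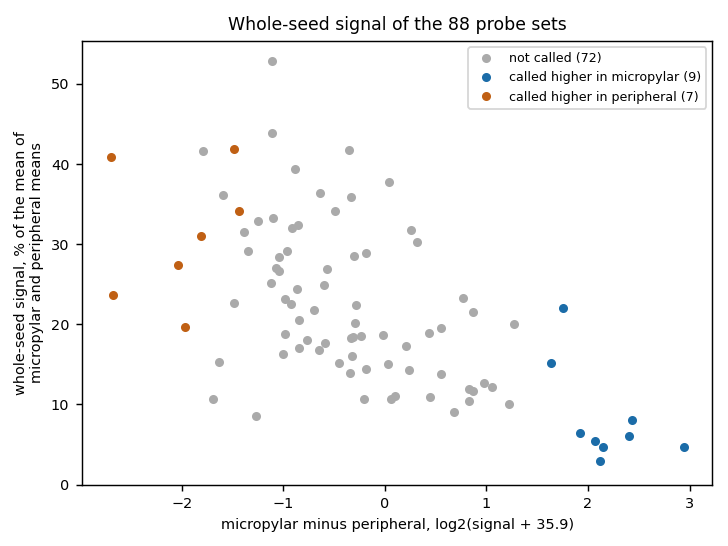
Whole-seed mean of each of the 88 probe sets as a percent of the mean of its micropylar and peripheral means (vertical axis), against the micropylar minus peripheral difference on the log2(signal + 35.9) scale (horizontal axis). Blue points were called higher in the micropylar and orange points higher in the peripheral endosperm. The 9 blue points lie between 2.89% and 22.01% and the 7 orange points between 19.6% and 41.89%.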

How the data were processed

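The authors deposited 1 intensity value for each of 22810 probe sets on each ATH1 array, on a linear scale. Per the submitters' processing notes GCOS was used. Its version and settings are not given in the sources used here. All 64 control probe sets were left out. Signals were used as scaled, turned into log2(signal + 35.9231), the added value being the 25th percentile, and tested where both arrays of a group were above that array's 40th percentile (17336 of 22746). A single limma fit (version 3.58.1, R 4.3.3; lmFit, eBayes with trend) held 7 group means, 4 contrasts and the Benjamini-Hochberg adjustment over all tested probe sets of a contrast. It was tested on simulated data. Gene names came from the platform annotation (13513 probe sets with 1 gene, 503 with several, 8730 with none), of which 13436 matched the TAIR10.1 gene table. Members and gene lists were chosen with earlier results of these data known. Named genes were drawn from the brightest members with 1 gene, those called with the largest differences, members of the lists, neighbours in the genome and probe sets near the thresholds. Alternatives changed the added value, filter, normalization, variance model, replicate block, call rule and the arrays left out. No sequences were used here.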

Additional observations from a re-analysis of the deposited data

How the results depend on the processing

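The counts of called members moved most, and the whole-seed median of 613 was 547 after quantile normalization and 530 to 612 with 1 whole-seed array. For micropylar over peripheral endosperm (9 higher, 7 lower) they were 3 and 4 with no added value, where all tested had 4.05% and 4.19%. They were 5 and 13 after median scaling (all tested 4.51% and 9.41%) and 0 and 0 by treat (all tested 1.37% and 0.958%). Without the variance trend 4 were lower (all tested 5.2%). For the embryo proper over the chalazal endosperm (7 higher, 1 lower) there were 2 higher with no added value (all tested 17.4%). Quantile normalization gave 3 higher and 3 lower (all tested 19% and 15.2%). There were 4 higher without the trend (all tested 19.4%) and 0 higher by treat (all tested 8.05%). Against the seed coat, treat called 16 higher and 0 lower in the chalazal endosperm (33 and 1), where all tested had 5.48% and 8.18%. In the embryo proper (36 and 2) it called 11 higher and 0 lower (all tested 4.22% and 5.35%). Quantile normalization and median scaling each left 1 lower there (all tested 13.8% and 13.7%). Leaving out 1 array at a time, with the lone array of a group assumed to vary like the others, gave 2 to 10 higher and 1 to 10 lower for micropylar over peripheral, 1 to 13 and 1 to 5 for the embryo proper over the chalazal endosperm, 21 to 39 and 0 to 7 for the chalazal endosperm over the seed coat, and 20 to 39 and 0 to 2 for the embryo proper over the seed coat. The shares called among all tested probe sets moved with the array left out as well. The cause was not tested. The rule gave 74 (without chalazal endosperm replicate 2) to 99 members (without chalazal endosperm replicate 1) when 1 array was left out, 166 at a ratio of 2 and 23 at a ratio of 5. The first GAT1_2.1 probe set turned from 0.10 to -0.21 (median scaling), -0.22 (without micropylar replicate 1) and -0.39 (without peripheral replicate 2; the range without 1 array was -0.39 to 0.60), and UGT84B1 from 0.06 to -0.25 (median scaling), -0.25 (without micropylar replicate 1) and -0.23 (without peripheral replicate 1; range -0.25 to 0.37). With the replicate number as a block the counts were 8 higher and 8 lower for micropylar over peripheral (all tested 5.97% and 6.09%). In each comparison with the seed coat 35 were higher (all tested 13.4% in each). Arrays with the same number did not deviate together (r from -0.03 to 0.04 over 21 pairs of groups). That cannot tell whether samples with the same number shared plants or seeds. With no added value, the size of a difference for probe sets under 35.9 rests on dim signal.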

Other observations

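The probe sets nearest to the ratio of 3 were 267002_s_at (3.04), AT5G09370 (3.06) and 263114_at (3.08) on the inside and 245499_at (2.99), AT1G27700 (2.96) and AT5G58330 (2.94) on the outside. Nearest to the level of 500 were AT2G21420 (532), 245806_at (559) and AT1G17830 (611) on the inside and 262632_at (497), 251112_s_at (491) and AT1G23070 (477) on the outside. AT2G21420 read 1648 and 515 in the micropylar and 485 and 579 in the peripheral endosperm, so that single arrays lay on both sides of the level.

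The 31 member genes were spread over the 5 chromosomes as 10, 6, 2, 5 and 8, which is 32.3%, 19.4%, 6.45%, 16.1% and 25.8%, beside 25.8%, 16.4%, 20.6%, 14.6% and 22.6% of the array's genes. On chromosome 4, AT4G30500 and AT4G30620 had 13 genes between them. AT4G30500 read 5754 and 6520 in the micropylar and 4629 and 2426 in the peripheral endosperm, and AT4G30620 read 4344 and 1501 against 3214 and 3064. Neither was called between the 2 regions.

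Wide gaps between the micropylar arrays also occurred in other single-gene members, AT5G56100, AT1G11070 and AT1G17830 (1284 and 593.5) among them. AT5G56100 read 992 and 2689, and its peripheral arrays read 3643 and 4273. AT1G11070 read 2004 and 1010, and its peripheral arrays read 4922 and 4108. AT3G47650, a brighter member, read 4267 and 4796 in the micropylar and 19588 and 12629 in the peripheral endosperm. Its difference of -1.79 (SE 0.61, adjusted p = 0.0593) was not called. Its highest low compartment was the general seed coat, at 753 and 1659.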
